A study of Mus musculus with 36 samples.

Results

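The livers of mice on the low-fat (LF) control diet were compared with epididymal white adipose tissue (eWAT), a visceral fat depot attached to the epididymis, from mice on the same diet, by bulk RNA sequencing of 6 libraries per tissue. The members were genes, chosen by whether a deposited count table lists them: 13206 genes stood in both the liver and the eWAT table and were tested, 846 stood in the liver table only and 3484 in the eWAT table only, of 17536 genes in either. The 12 LF libraries were 12 of the 36 in the series.

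All libraries came from F0 wild-type C57BL/6 male mice aged 24 weeks that had eaten chow until 6 weeks of age and were not genetically modified according to the labels. The LF groups then ate the low-fat diet for 18 weeks. In the other groups, used here only at the end, the mice ate a high-fat diet for 18 weeks (HF) or for 9 weeks followed by 9 weeks of low-fat diet (HFLF). Nothing in the labels states that the 6 libraries of a group are from 6 different mice, or that equal numbers in liver and eWAT mark 1 mouse, so the p-values measure the spread between these samples.

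Hepatocytes, the main cells of the liver, secrete most proteins of blood plasma, make bile acids and urea, break down amino acids and drugs, and release glucose in fasting. White adipocytes hold triglyceride in 1 large droplet, take up fatty acids from lipoproteins, release them by lipolysis, and secrete hormones such as leptin and adiponectin. Both tissues also hold blood vessels, macrophages and connective tissue cells, and in bulk RNA fewer cells of a type and less RNA per cell cannot be told apart.

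Levels are CPM, the count of a gene relative to all counts of its library's own table, scaled by edgeR's TMM factors, and log2 fold changes are liver over eWAT, so that a positive value means higher in liver. Library totals were 18303432 to 23295485 counts in liver and 10676818 to 31186477 counts in eWAT. The TMM factors were 0.744 to 0.784 in liver and 1.24 to 1.44 in eWAT, a gap that bears on every small difference: with plain CPM the median log2 fold change of all genes was -0.79, and with upper-quartile factors it was -0.21, against -0.021 here. Spearman correlations of gene levels across genes were 0.963 to 0.991 among liver libraries, 0.926 to 0.989 among eWAT libraries, and 0.649 to 0.714 between the tissues. The defining markers stood on the side of the labelled tissue, Alb in liver and Adipoq and Plin1 in eWAT. Libraries 3, 4 and 5 of eWAT and libraries 1 to 4 of liver stood apart in some genes, as described below. Where a fold change of a gene named for its size moved by more than 1.5 times without either set, that value is given in the same paragraph or where the gene is described.

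Of the 13206 genes in both tables, 9862 (74.7%) passed at an adjusted p of 0.05 (edgeR's quasi-likelihood test, Benjamini-Hochberg), 4755 (36%) higher in liver and 5107 (38.7%) higher in eWAT. Against a minimum of 2-fold, 4124 genes (31.2%) passed, 1682 (12.7%) higher in liver and 2442 (18.5%) higher in eWAT. With plain CPM the split was 1899 higher in liver and 8947 higher in eWAT, and 929 and 4594 at more than 2-fold. The 6 libraries of each tissue did not overlap for 7498 genes (56.8%). Every count of a gene list below is to be read against these shares. The extremes were unequal: 111 genes had a log2 fold change of at least 8 towards liver and 10 towards eWAT, whereas at 2 or more the counts were 1046 towards liver and 1662 towards eWAT. The fold changes ran from -12.72 for Cfd, the complement factor D gene that codes for adipsin, to 10.43 for Tat, tyrosine aminotransferase. Without liver libraries 1 to 4 these were -11.51 and 9.64, and Tat had 13.51 without eWAT libraries 3, 4 and 5.

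**Figure D1:**
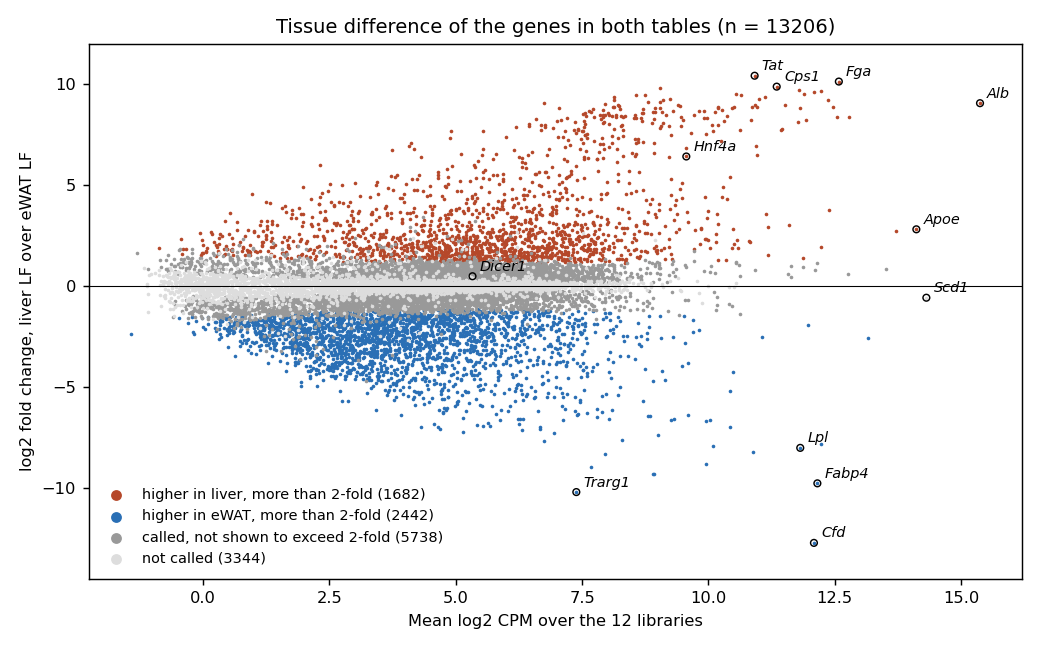
Mean log2 level of each of the 13206 shared genes (x axis) against its log2 fold change, liver over eWAT (y axis), with genes coloured by whether they passed at more than 2-fold (1682 higher in liver and 2442 higher in eWAT), passed without being shown to exceed 2-fold, or did not pass (3344). The most extreme points towards liver reach 10.43 (Tat) and those towards eWAT reach -12.72 (Cfd).

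Alb, the gene of serum albumin (chr5:90460897-90476602 of GRCm38, plus strand), had between 71990 and 101349 CPM in the 6 liver libraries, with a median of 86138 CPM, against 20.5, 43.5, 225, 127, 508 and 25.4 CPM in eWAT libraries 1 to 6. The tissues did not overlap, and the eWAT libraries themselves spanned a wide range with library 5 highest. The log2 fold change was 9.07 ± 0.69 (SE), with an adjusted p of 2.2e-06 by edgeR. Apoa1, the main protein of high-density lipoprotein, averaged 14133 ± 1662 CPM in liver and 43.1 ± 50.9 CPM in eWAT (SD, n = 6 each). Fga, the fibrinogen alpha chain, averaged 12250 ± 3910 CPM in liver and 10.9 ± 12.4 CPM in eWAT (SD, n = 6 each). Both genes were lowest in eWAT libraries 1 and 6 and highest in eWAT library 5.

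All 39 genes of secreted plasma proteins in both tables were higher in liver, with a median log2 fold change of 8.71, against 36% and -0.021 over all genes tested. The fibrinogen chains led the list (Fga 10.14 ± 0.79, Fgb 9.67 ± 0.77, Fgg 9.63 ± 0.75), followed by the heme carrier Hpx (9.51 ± 0.79) and plasminogen, Plg (9.46 ± 0.74). The lipoprotein scaffold Apob had 9.37 ± 0.79. Among secreted proteins outside the list, the acute phase apolipoprotein Saa4 had 9.82 ± 0.84, the protease inhibitor Pzp 9.73 ± 0.79 and Mug1, a murinoglobulin, 9.51 ± 0.79. The near copy of Mug1, Mug2, listed in the liver table only at 615 ± 141 CPM, may share reads with it. The least one-sided members were those that adipose tissue also holds in quantity. Haptoglobin, Hp, had 7641 ± 4262 CPM in liver and 2017 ± 596 CPM in eWAT (log2 fold change 1.92 ± 0.39), the iron carrier Trf 23419 ± 2760 and 3467 ± 830 CPM (2.76 ± 0.21), and the retinol carrier Rbp4 4102 ± 364 and 547 ± 148 CPM (2.91 ± 0.19). Without liver libraries 1 to 4, which held the most Hp, its fold change was 0.55 and it no longer passed (adjusted p = 0.157, edgeR). The same libraries bear on Fga (9.44 without them), Fgb (9.00), Fgg (8.97), Hpx (8.54) and Saa4 (8.31).

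The plasma protein transcripts found in eWAT varied together from library to library. Over the 39 genes, the median level in eWAT libraries 1 to 6 was 0.0142%, 0.0703%, 0.376%, 0.208%, 0.712% and 0.0238% of the liver mean. By this median, libraries 3, 4 and 5 were above the other eWAT libraries. The summed level of the same genes, to which abundant members that eWAT also holds contribute most, did not follow that order, with 3.14%, 2.78%, 2.92%, 1.76%, 2.88% and 2.16% of the liver mean in eWAT libraries 1 to 6. Without those 3 libraries the median fold change of the list was 11.40, 32 of the 39 values moved by more than 1.5 times, and all 39 genes were still higher in liver. Without library 5 alone the median was 9.53. Alb was then 11.46 without the 3 libraries and 9.93 without library 5, Apoa1 11.08 and 9.13, Fga 13.14 and 10.85, and Saa4 13.27 and 10.90. Without the 3 libraries, Fgb had 12.52, Fgg 12.43, Hpx 12.28, Plg 12.51, Apob 12.42, Pzp 13.12 and Mug1 12.90. Without library 5, Fgb had 10.43, Fgg 10.35, Hpx 10.38, Plg 10.29, Apob 10.30, Pzp 10.47 and Mug1 10.47. The folds of hepatocyte genes are thus set in part by a few eWAT libraries, and the source of these transcripts was not tested.

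**Figure D2:**
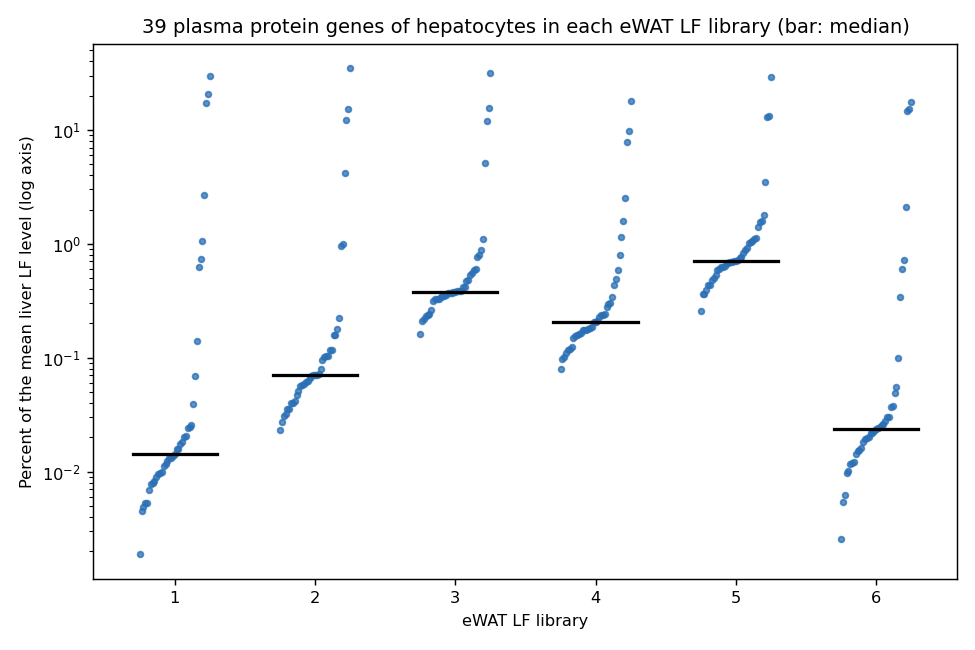
Level of each of the 39 plasma protein genes in eWAT libraries 1 to 6 as a percent of its mean in liver (log axis), with the median of each library marked. Libraries 3, 4 and 5 sit above the others, with medians of 0.376%, 0.208% and 0.712% against 0.0142% to 0.0703%.

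The promoters of 5 genes that carry the contrast are printed to show their start regions, 4 of liver-type genes and 1 of a fat-type gene. They are 300 bases from RefSeq (GRCm38.p6), from 250 before to 50 after RefSeq's start of the gene, 5′ to 3′. For Alb that start lies upstream of the gene start given above, which comes from the GENCODE annotation. Capitals mark GTTAAT or its reverse complement ATTAAC, a hexamer known from sites of liver-enriched factors, and TATAAA, the TATA box.
Alb, chr5:90460620-90460919, plus strand: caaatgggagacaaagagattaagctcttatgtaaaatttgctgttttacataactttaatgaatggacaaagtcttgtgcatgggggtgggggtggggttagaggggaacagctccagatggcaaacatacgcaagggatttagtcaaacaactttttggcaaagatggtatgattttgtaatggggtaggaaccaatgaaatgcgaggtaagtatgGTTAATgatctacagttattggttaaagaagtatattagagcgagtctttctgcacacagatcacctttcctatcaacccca
Apoa1, chr9:46228380-46228679, plus strand: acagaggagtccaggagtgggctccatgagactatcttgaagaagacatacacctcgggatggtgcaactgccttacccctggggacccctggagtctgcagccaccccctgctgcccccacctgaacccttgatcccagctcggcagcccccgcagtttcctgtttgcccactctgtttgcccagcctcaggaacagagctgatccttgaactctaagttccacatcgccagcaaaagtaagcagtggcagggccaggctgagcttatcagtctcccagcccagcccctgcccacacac
Fga, chr3:83025903-83026202, plus strand: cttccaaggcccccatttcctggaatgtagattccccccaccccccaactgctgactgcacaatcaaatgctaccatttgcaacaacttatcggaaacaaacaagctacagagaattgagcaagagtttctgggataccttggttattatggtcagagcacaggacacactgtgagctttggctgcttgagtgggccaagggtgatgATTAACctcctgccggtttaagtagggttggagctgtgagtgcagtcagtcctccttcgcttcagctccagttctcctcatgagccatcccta
G6pc, chr11:101367466-101367765, plus strand: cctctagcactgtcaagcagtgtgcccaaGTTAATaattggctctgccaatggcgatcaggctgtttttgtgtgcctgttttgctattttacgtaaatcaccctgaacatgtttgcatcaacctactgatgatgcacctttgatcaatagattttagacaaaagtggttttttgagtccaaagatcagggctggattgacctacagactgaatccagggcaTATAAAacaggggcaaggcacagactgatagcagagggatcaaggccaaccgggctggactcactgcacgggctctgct
Adipoq, chr16:23146286-23146585, plus strand: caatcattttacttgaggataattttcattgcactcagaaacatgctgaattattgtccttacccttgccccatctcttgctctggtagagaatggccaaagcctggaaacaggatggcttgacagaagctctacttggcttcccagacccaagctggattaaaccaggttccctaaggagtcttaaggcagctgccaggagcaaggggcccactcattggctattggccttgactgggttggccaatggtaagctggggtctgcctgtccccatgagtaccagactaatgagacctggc
The hexamer began 32 bases before the RefSeq start in Alb, 43 before in Fga and 221 before in G6pc, and the TATA box 29 before in G6pc. Neither set of letters was in the window of Apoa1, a liver gene, or of Adipoq, and neither was in those of Plin1 and Lep, which are not printed.

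Over all 32851 promoters searched on both strands, GTTAAT stood in 7.10%. It stood in 7.60% of the promoters of genes higher in liver by more than 2-fold, in 4.45% of those higher in eWAT by more than 2-fold, and in 4.40% of those that did not pass. Among the genes of 1 table only, it stood in 10.6% of liver promoters and 5.22% of eWAT promoters. CAAAGTCCA, a core of the HNF4 type of site, stood in 3.20% of promoters of genes listed for liver only and 0.392% of those listed for eWAT only, against 0.475% of all, but the larger sets that passed at more than 2-fold were close, with 0.791% for liver and 0.490% for eWAT. GGGCGG, the GC box, stood in 20% of promoters of the liver table only and 42.4% of those of the eWAT table only, in 55.7% and 59.2% of those higher by more than 2-fold in liver and in eWAT, and in 35.7% of all. TATAAA stood in 17.8% and 10.2% of those listed for 1 table, in 9.98% and 7.96% of the sets at more than 2-fold, and in 13.6% of all. These shares are descriptions with no test, and genes with several promoters enter more than once.

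Complement, the set of plasma proteases and pore proteins that act on microbes, was split between the tissues. Of 24 members in both tables, 17 were higher in liver and 6 higher in eWAT, with a median of 3.36. The terminal pore genes C8b (9.25 ± 0.64) and C8g (6.29 ± 0.20), the lectins and proteases of the lectin pathway Mbl2 (8.63 ± 0.63) and Masp2 (7.75 ± 0.26), and the central component C3 (3.79 ± 0.22) were higher in liver. Without eWAT library 5, C8b had 9.90 and Mbl2 9.63, and without eWAT libraries 3, 4 and 5 C8b had 11.98, Mbl2 11.29 and Masp2 8.38. C3 had 7808, 10220, 11640, 13080, 8826 and 8525 CPM in liver libraries 1 to 6, against 1088, 594, 812, 583, 749 and 522 CPM in eWAT libraries 1 to 6. Even the lowest liver library was above the highest eWAT library for C3, although no eWAT library was below 522 CPM.

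Cfd, which starts the alternative pathway by cleaving factor B, was the strongest exception and the most one-sided gene of all towards fat (chr10:79890853-79892655, plus strand). It had 0.63, 0.562, 0.363, 0.211, 5.75 and 0.209 CPM in liver libraries 1 to 6, against 10096, 12619, 12530, 6630, 3853 and 6527 CPM in eWAT libraries 1 to 6. The groups did not overlap, and liver library 5 was the only liver library above 1 CPM. The log2 fold change was -12.72 ± 0.73 (adjusted p = 3.6e-07, edgeR) -14.39 without that library and -11.51 without liver libraries 1 to 4. Its substrate Cfb was higher in liver (3.13 ± 0.16). C7, a further member of the terminal pore, was higher in eWAT at 154 ± 77.6 CPM, against 1.62 ± 0.888 CPM in liver (-6.57 ± 0.46). The remaining members higher in eWAT were C1qa (-1.14), C1qb (-1.11), C1qc (-1.05), all made by macrophages, and Cfp (-0.86), which codes for properdin.

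Enzymes of the urea cycle and of amino acid breakdown were among the most liver-restricted genes: 29 of 31 members in both tables were higher in liver, none was higher in eWAT, and the median was 7.86. Cps1, the entry enzyme of the urea cycle, had 4705, 5429, 6539, 4594, 5396 and 4664 CPM in liver libraries 1 to 6, against 0.262, 0.918, 10.1, 4.72, 16.7 and 0.431 CPM in eWAT libraries 1 to 6. The groups were far apart, with the same 3 eWAT libraries highest. Its fold change was 9.89 ± 0.79, with 10.68 without eWAT library 5 and 13.30 without eWAT libraries 3, 4 and 5. Tat had 3859 ± 1581 CPM in liver and 2.8 ± 3.39 CPM in eWAT (10.43 ± 0.76, with 11.31 without eWAT library 5). The further urea cycle enzymes Ass1 (7.67 ± 0.52), Asl (4.62 ± 0.14) and Arg1 (8.46 ± 0.59, or 9.23 without eWAT library 5) followed, and Otc was listed in the liver table only, at 419 ± 40.9 CPM. Without eWAT libraries 3, 4 and 5, Tat had 13.51, Arg1 10.57 and Ass1 9.40, and without liver libraries 1 to 4 Tat had 9.64. The list median was 8.46 without eWAT library 5 and 9.76 without eWAT libraries 3, 4 and 5.

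Bile acid synthesis and transport had 14 of 15 shared members higher in liver, none higher in eWAT, and a median of 6.80, with 8 further members in the liver table only. The canalicular bile salt pump Abcb11 had 892 ± 145 CPM in liver and 1.62 ± 1.71 CPM in eWAT (9.11 ± 0.64, or 9.80 without eWAT library 5 and 11.95 without libraries 3, 4 and 5), and the phospholipid exporter Abcb4 348 ± 62.9 and 3.12 ± 0.401 CPM (6.80 ± 0.13). The bile acid receptor Nr1h4 had a fold change of 6.17 ± 0.24. Cyp27a1, a sterol hydroxylase that many tissues hold, was higher in liver by less (3.68 ± 0.12, with 64.6 ± 11.4 CPM in eWAT). Cyp7a1, the rate-limiting enzyme of the classical pathway, was in the liver table only and varied widely, with 12.6, 13.1, 18.5, 15.5, 111 and 50.9 CPM in liver libraries 1 to 6. Of drug metabolism genes, 20 of 22 shared members were higher in liver (median 4.63), led in precision by Aox3, aldehyde oxidase (7.09 ± 0.17), and Fmo5, a flavin monooxygenase (4.33 ± 0.13). Cyp2e1, the ethanol-metabolising P450, had 5563 ± 1802 CPM in liver and 3227 ± 1489 CPM in eWAT (0.79 ± 0.32). Its libraries overlapped, and leaving out any of 8 single libraries ended the call, with adjusted p of 0.0558 to 0.0957 (edgeR). Cyp2b10 was the only member listed for eWAT alone, and Cyp2c and Gst members have near copies that may share reads.

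Genes of glucose output and handling were higher in liver in 18 of 20 cases, with a median of 4.60. G6pc, the glucose 6-phosphatase catalytic subunit that releases free glucose, had 935, 464, 291, 400, 367 and 804 CPM in liver libraries 1 to 6, against 0.262, 0.746, 0.942, 2.88, 4.07 and 0.253 CPM in eWAT libraries 1 to 6. No eWAT library came near the lowest liver library (8.45 ± 0.61, or 9.10 without eWAT library 5 and 10.44 without libraries 3, 4 and 5). Pck1, the cytosolic carboxykinase, was much less one-sided: it had 6290 ± 702 CPM in liver and 2833 ± 601 CPM in eWAT (1.15 ± 0.18). The exceptions were the mitochondrial carboxykinase Pck2, with 7.85 ± 1.29 CPM in liver and 38.1 ± 3.19 CPM in eWAT (-2.28 ± 0.11), and pyruvate carboxylase, Pcx, with 950 ± 191 and 1762 ± 543 CPM (-0.89 ± 0.22, or -0.71 without liver libraries 1 to 4, where it did not pass). The glucagon receptor Gcgr was higher in liver (6.78 ± 0.35, or 7.62 without eWAT libraries 3, 4 and 5), as was the glycogen-targeting phosphatase subunit Ppp1r3b (5.39 ± 0.32).

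Of the hepatocyte transcription factors, 10 of 12 in both tables were higher in liver (median 5.37), 9 higher in liver and 2 in eWAT with plain CPM, and 10 more were in the liver table only, among them Foxa2 (61.1 ± 39.6 CPM) and Foxa3 (176 ± 39 CPM). Hnf4a, a nuclear receptor of the hepatocyte programme, had 1373 to 1596 CPM in liver with a median of 1500 CPM, against 0, 0.516, 4.13, 62.8, 36.5 and 0.253 CPM in eWAT libraries 1 to 6. Here eWAT libraries 4 and 5 stood high, with library 4 above library 5, an order unlike that of Alb. The fold change was 6.43 ± 1.14 (adjusted p = 0.00136, edgeR), 7.47 without eWAT library 4 and 12.55 without libraries 3, 4 and 5. Ppara, the fatty acid receptor of the fasting response, had 76.1 ± 16.9 CPM in liver and 2.02 ± 0.8 CPM in eWAT (5.23 ± 0.24). Cebpa, used by hepatocytes and adipocytes alike, had 790 ± 302 CPM in liver and 1004 ± 238 CPM in eWAT and did not pass (-0.35 ± 0.25, adjusted p = 0.226), with a value of 0.20 without liver libraries 1 to 4.

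The genes in the liver table only were fewer than those in the eWAT table only, 6.02% of the liver table against 20.9% of the eWAT table, but more of them were abundant: 90 of 846 (10.6%) had a mean of at least 100 CPM, against 40 of 3484 (1.15%). Because each table was filtered within its tissue, a gene missing from the other table has no value there, and no fold change is given. The most abundant in liver were Saa1 (2030 ± 1941 CPM) and Saa2 (1921 ± 2027 CPM), near-identical acute phase apolipoproteins that may share reads, and Igfbp1 (1109 ± 1409 CPM), a binding protein of insulin-like growth factors. Next came C-reactive protein, Crp (676 ± 134 CPM), the carboxypeptidase subunit Cpn2 (627 ± 135 CPM), the organic anion transporter Slco1a1 (581 ± 90.3 CPM), the glucuronosyltransferase Ugt2b36 (480 ± 71.2 CPM) and the protease inhibitor Serpina10 (444 ± 201 CPM). Saa1 had 1302, 2326, 4679, 3816, 36.1 and 19.1 CPM in liver libraries 1 to 6. Libraries 1 to 4 of liver were thus high and libraries 5 and 6 low for this acute phase gene. Igfbp1 had 3291, 2490, 230, 456, 97.9 and 88.5 CPM in the same order, high in liver libraries 1 and 2. Among the liver-type lists, presence in both tables went with level: of 101 genes with at least 500 CPM in liver 1 (0.990%) was in the liver table only, of 63 with 100 to 500 CPM 20 (31.7%), and of 14 below 100 CPM 9 (64.3%).

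**Figure D3:**
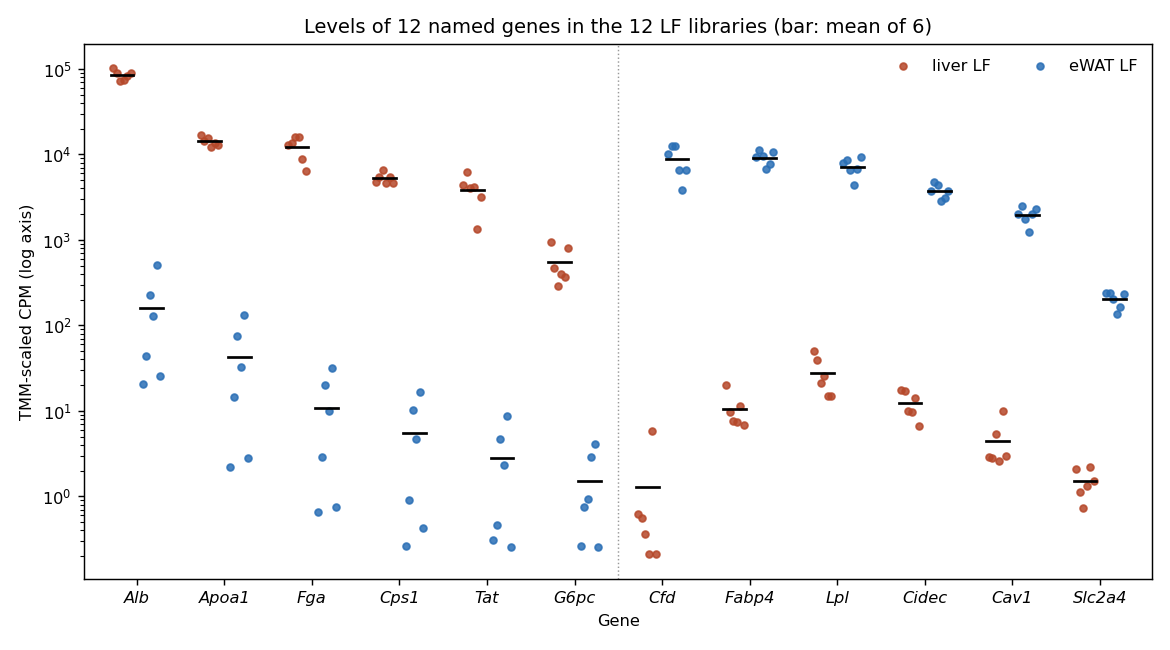
Level in each of the 6 liver LF and 6 eWAT LF libraries (TMM-scaled CPM, log axis) of 6 liver-type and 6 fat-type genes, liver left of eWAT, 1 point per library and a bar for the mean. For Alb, Fga, Cps1 and Tat all liver points lie above all eWAT points, with eWAT libraries 3, 4 and 5 highest among the eWAT points, and for Cfd and Fabp4 all eWAT points lie above all liver points.

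Of 28 adipocyte identity genes in both tables, 24 were higher in eWAT, with a median of -5.98, and 13 more were in the eWAT table only, against a background of 38.7% higher in eWAT. Fabp4, the fatty acid carrier of adipocytes and capillary endothelium (chr3:10204088-10208576, minus strand), had 19.8, 9.66, 7.54, 7.37, 11.4 and 6.9 CPM in liver libraries 1 to 6, against 9195, 11130, 9599, 6651, 7628 and 10523 CPM in eWAT libraries 1 to 6. The gap was far wider than the spread within either tissue (-9.77 ± 0.27, adjusted p = 3.73e-10, edgeR). Trarg1, a regulator of GLUT4 vesicles, had 0.281 ± 0.169 CPM in liver and 334 ± 100 CPM in eWAT (-10.20 ± 0.34). Cidec, which fuses lipid droplets, had 12.5 ± 4.4 and 3746 ± 725 CPM (-8.23 ± 0.24), and Lpl, lipoprotein lipase, 27.8 ± 14.3 and 7192 ± 1714 CPM (-8.01 ± 0.32, or -8.89 without liver libraries 1 to 4). The further leading genes towards eWAT were the imprinted proteolipid Nnat (-9.32 ± 0.20), the protein kinase A regulatory subunit Prkar2b (-8.95 ± 0.24), the caveolar coat Cav1 (-8.80 ± 0.33) and the natriuretic peptide clearance receptor Npr3 (-8.32 ± 0.44). Members on the other side were Rbp4 and angiotensinogen, Agt, with 714 ± 89.2 CPM in liver and 327 ± 88.8 CPM in eWAT (1.13 ± 0.17). With plain CPM only 1 of the 28 shared members was higher in liver, and 26 were higher in eWAT.

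The classical adipocyte hormones were listed for eWAT only. Adipoq, adiponectin, had 2712, 2499, 2553, 1659, 2077 and 3013 CPM in eWAT libraries 1 to 6, and the droplet coat Plin1 had 2521, 2930, 2492, 1629, 1936 and 2623 CPM. Both were lowest in library 4. Lep, leptin, had 488, 532, 273, 252, 1642 and 1093 CPM, so that it spread more widely than Adipoq, with libraries 5 and 6 highest. The other abundant genes of the eWAT table only were the amine oxidase Aoc3 (1563 ± 398 CPM), resistin, Retn (1101 ± 347 CPM), Sncg (459 ± 213 CPM), Apol6 (370 ± 74.7 CPM), Timp4 (341 ± 99.3 CPM), the droplet galectin Lgals12 (335 ± 73.9 CPM) and Rgcc (303 ± 80.5 CPM; SD, n = 6 each). The exons of Timp4 overlap those of Syn2 on the other strand, and without a stated strand setting the reads of both cannot be told apart. This limit also applies to other genes named here that share exon sequence with a gene on the other strand, among them Adrb3, Npr3, Lipe, Agpat1, Bscl2, Mttp, Gys1, Pklr, Thra and Rhoq.

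Lipid handling was divided by step. Droplet and lipolysis genes had 5 of 22 shared members higher in liver and 15 higher in eWAT (median -2.05). Hormone-sensitive lipase, Lipe, had 18.9 ± 2.79 CPM in liver and 1960 ± 431 CPM in eWAT (-6.70 ± 0.17), and the beta3 adrenoceptor that drives it, Adrb3, 12.1 ± 3.55 and 1209 ± 336 CPM (-6.64 ± 0.23). Triglyceride synthesis had 8 members higher in liver and 9 higher in eWAT of 17 (median -0.66), a balance that rests on the scaling, since with plain CPM 2 were higher in liver and 9 in eWAT (median -1.42). Mttp, which loads triglyceride on apolipoprotein B, had 436 ± 27.3 CPM in liver and 5.49 ± 2.61 CPM in eWAT (6.31 ± 0.24, or 6.92 without eWAT libraries 3, 4 and 5), and the phosphatidate phosphatase Lpin2 579 ± 217 and 15.5 ± 8.07 CPM (5.22 ± 0.33, or 5.81 without those libraries). On the other side, Dgat1, a last-step acyltransferase (-2.89 ± 0.14), Agpat1 (-2.08 ± 0.05) and Bscl2, seipin of droplet formation (-2.29 ± 0.14), were higher in eWAT, as was Mogat1 (-7.00 ± 0.57, or -8.02 without liver library 5 and -5.82 without liver libraries 1 to 4).

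De novo lipogenesis, the making of fatty acids from acetyl-CoA, had 6 of 21 members higher in liver and 10 higher in eWAT (median -0.57). Fasn, fatty acid synthase, had 2064, 1883, 1286, 1097, 1601 and 2100 CPM in liver libraries 1 to 6, against 12609, 4600, 4820, 3890, 3666 and 8636 CPM in eWAT libraries 1 to 6. All eWAT libraries were above all liver libraries, and eWAT library 1 was the highest (-1.93 ± 0.33). Acaca, which makes malonyl-CoA, followed (-1.74 ± 0.30), and Pnpla3, a lipid acyl hydrolase, was among the most one-sided towards eWAT (7.53 ± 2.38 CPM in liver and 534 ± 134 CPM in eWAT, -6.15 ± 0.23). The polyunsaturated fatty acid genes stood on the other side: Fads1 (3.0 ± 0.16), Elovl5 (3.08 ± 0.23) and Fads2 (4.28 ± 0.52, or 6.02 without eWAT libraries 3, 4 and 5) were higher in liver. Scd1, the main delta9 desaturase, was among the most abundant genes of both tissues, with 16381 ± 5656 CPM in liver and 24368 ± 5975 CPM in eWAT, and did not pass (-0.57 ± 0.28, adjusted p = 0.084).

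Fatty acid oxidation and ketone body genes had 21 of 30 shared members higher in liver, 2 higher in eWAT and 7 that did not pass (median 1.10). With plain CPM 13 were higher in liver and 9 in eWAT (median 0.34). Oxct1, which spends ketone bodies and which hepatocytes are known to lack, had 5.3 ± 1.79 CPM in liver and 241 ± 37.3 CPM in eWAT (-5.51 ± 0.19), and Crat, carnitine acetyltransferase, was the other member higher in eWAT (-2.33 ± 0.25). The exons of Oxct1 overlap a gene on the other strand. Cholesterol synthesis and uptake had 24 of 27 members higher in liver (median 2.55), among them Ebp, a sterol isomerase, with 249 ± 14.5 CPM in liver and 32.7 ± 2.81 CPM in eWAT (2.92 ± 0.07), and Cyp51, the lanosterol demethylase, with 232 ± 36 and 39.6 ± 4.48 CPM (2.55 ± 0.11). Soat1, which esterifies cholesterol, was the 1 member higher in eWAT (-1.20 ± 0.31, or -0.55 without eWAT libraries 3, 4 and 5), and it did not pass without liver libraries 1 to 4 (-1.42).

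Pparg, the nuclear receptor that drives adipocyte formation, had 7.69, 5.9, 2.25, 5.97, 8.49 and 4.95 CPM in liver libraries 1 to 6, against 152, 166, 103, 76.3, 126 and 178 CPM in eWAT libraries 1 to 6. The groups did not overlap (-4.50 ± 0.28, adjusted p = 4.33e-08, edgeR). The list of adipocyte transcription factors as a whole was mixed, with 7 members higher in liver, 9 higher in eWAT and 6 that did not pass of 22, a median of -0.51 here and 0.06 without liver libraries 1 to 4. With plain CPM 3 were higher in liver and 14 in eWAT (median -1.28). Zfp423, a factor of adipocyte commitment, had 0.403 ± 0.287 CPM in liver and 46.4 ± 8.17 CPM in eWAT (-6.81 ± 0.36, or -6.21 without liver libraries 1 to 4), and Klf4 had -4.86 ± 0.33. Ebf1 (146 ± 34.3 CPM) and Ebf2 (25.5 ± 5.85 CPM), early B-cell factors that also act in adipocytes, were in the eWAT table only. Cebpb (3.11 ± 0.35, or 1.90 without liver libraries 1 to 4), Rxra (1.90 ± 0.14) and Klf15 (1.86 ± 0.18) were higher in liver. Ppargc1a, the coactivator of mitochondrial genes, had 11 ± 3.32 CPM in liver and 4.03 ± 2.48 CPM in eWAT, and the libraries overlapped (1.45 ± 0.35, adjusted p = 0.00238, or 2.05 without eWAT libraries 3, 4 and 5).

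Hox genes, which keep a cell's position along the body axis, were on the eWAT side without exception: all 5 in both tables were higher in eWAT (median -3.16), and 22 were in the eWAT table only, with 12 in neither table and 0 in the liver table only. Hoxc8 had 130 ± 36.7 CPM and Hoxd8 34.3 ± 8.93 CPM in eWAT. Hoxb5 had 0.568 ± 0.187 CPM in liver and 10.3 ± 3.7 CPM in eWAT (-4.16 ± 0.30), and Hoxa5 1.63 ± 1.45 and 18.7 ± 2.65 CPM (-3.51 ± 0.39, or -4.13 without liver library 1 and -4.17 without liver libraries 1 to 4). Hoxb5 shares exon sequence with Hoxb5os on the other strand and is uncertain for that reason.

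Connective tissue genes were mostly higher in eWAT. Of 36 collagen and basement membrane genes, 4 were higher in liver and 32 in eWAT (median -3.83), and of 22 progenitor and fibroblast genes 2 were higher in liver and 19 in eWAT (median -3.78). Basement membrane laminins and nidogen showed it in every library: Lama4 had 5.12 ± 1.35 CPM in liver and 185 ± 31.5 CPM in eWAT (-5.18 ± 0.16), Lamb2 12.3 ± 2.93 and 284 ± 13.8 CPM (-4.53 ± 0.13), and Nid1 22.2 ± 5.52 and 519 ± 142 CPM (-4.55 ± 0.21). The fibrillar collagen Col3a1 had 47.6 ± 30.2 and 811 ± 125 CPM (-4.09 ± 0.35). The exceptions higher in liver were Col18a1, the precursor of endostatin (3.09 ± 0.18), Col27a1 (3.81 ± 0.33, or 4.54 without eWAT libraries 3, 4 and 5), fibronectin, Fn1, which hepatocytes secrete into plasma (2.83 ± 0.23), and Col14a1 (0.62). Gsn, the actin-severing gelsolin, had 42.2 ± 23.1 CPM in liver and 9574 ± 1888 CPM in eWAT (-7.83 ± 0.30). Of 8 caveola genes, 6 were higher in eWAT (median -6.34), among them Cavin3 (-7.70 ± 0.28), Ehd2 (-7.36 ± 0.27) and Cav2 (-6.29 ± 0.17).

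All 20 general endothelial genes were higher in eWAT (median -2.54), Pecam1 at 26.8 ± 4.69 CPM in liver and 224 ± 37.8 CPM in eWAT (-3.06 ± 0.14) and the junction cadherin Cdh5 at 37.5 ± 10.1 and 281 ± 52.6 CPM (-2.90 ± 0.18). Genes of liver sinusoidal endothelium, the fenestrated lining of the liver, went the other way in 9 of 13 cases (median 1.15). With plain CPM 6 were higher in liver and 3 in eWAT (median 0.37). Dnase1l3 had 62.6 ± 12.5 CPM in liver and 2.37 ± 0.94 CPM in eWAT (4.70 ± 0.23), the scavenger receptor Stab2 56.2 ± 10 and 1.72 ± 1.33 CPM (5.08 ± 0.39), and the transcription factor Gata4 27.9 ± 5.88 and 0.582 ± 0.445 CPM (5.53 ± 0.38). Without eWAT libraries 3, 4 and 5, Stab2 had 6.31 and Gata4 6.48. Lyve1, Stab1 and Mrc1, which macrophages and lymphatic vessels also hold, were the 3 members higher in eWAT (-1.57, -0.51 and -0.69). Of 6 shared genes of continuous and adipose capillaries, 5 were higher in eWAT (median -3.98), such as Cd300lg (-3.49 ± 0.17) and the tight junction gene Cldn5 (-4.47 ± 0.18). Cd36 and Fabp4 are in this list as well as in that of adipocytes.

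Of 13 shared markers of Kupffer cells, the resident macrophages of liver, 10 were higher in liver and 2 in eWAT (median 2.03). Both of those 2 passed at more than 2-fold, the lower at -2.90. With plain CPM 7 were higher in liver and 2 in eWAT (median 1.27). Clec4f was in the liver table only (109 ± 14.1 CPM), and 1 marker was in the eWAT table only. Vsig4 had 20.2 ± 4.54 CPM in liver and 1.38 ± 0.796 CPM in eWAT (3.84 ± 0.33), the iron exporter Slc40a1 109 ± 32.5 and 7.75 ± 3.5 CPM (3.80 ± 0.28), and Cd5l 76.3 ± 11.5 and 3.64 ± 3.79 CPM (4.37 ± 0.44, or 5.10 without eWAT library 1). General macrophage genes were higher in liver in 1 of 16 cases and in eWAT in 11 (median -1.0). Lyz2 had 60.3 ± 19.6 CPM in liver and 258 ± 77.1 CPM in eWAT (-2.10 ± 0.24), and Itgam 1.57 ± 0.917 and 14 ± 4.47 CPM (-3.15 ± 0.36). The exception was Mpeg1, perforin 2, with 92.3 ± 47.1 and 26 ± 2.44 CPM (1.83 ± 0.26). Without liver libraries 1 to 4, Lyz2 had -2.69, Itgam -4.65 and Mpeg1 1.19. Of 14 genes of lipid-associated macrophages, 4 were higher in liver and 7 in eWAT (median -0.92), with 2 and 9 under plain CPM. The tetraspanin Cd63 was among those higher in eWAT (-4.65 ± 0.24). The lowest member was Lpl (-8.01), described above with the adipocyte genes, so the list is not made of macrophage transcripts alone. Lymphocyte genes were few in both tables: 1 of 8 (Cd4, 1.77 ± 0.30) was higher in liver, 6 were higher in eWAT (median of all 8 -1.80), and 12 were in the eWAT table only.

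Markers of other cells bear on which cells each sample held. Acta2 and Myh11 of smooth muscle had 1095 and 1209 CPM in eWAT library 3, against 87.9 to 272 CPM and 33.3 to 154 CPM in the other eWAT libraries. Library 3 also had 166 CPM of Crisp1, a secretory gene of the epididymis, against 0 to 0.568 CPM in the other eWAT libraries. Of 54 epididymal markers, 48 were in neither table, Lcn5, Gpx5 and Adam7 among them. Every listed gene exceeded 0.5 CPM in 6 or more of the 18 libraries of its table. A marker above that level in library 3 alone would therefore not be listed, and the absence cannot bear on that library. Acta2 had -5.66 ± 0.57 and Myh11 -6.08 ± 0.79, and without eWAT library 3 they had -4.83 and -4.55 (-6.70 and -6.77 without liver libraries 1 to 4). Epithelial genes were high in eWAT libraries 4 and 5 instead: the keratin Krt8 had 151 and 73.9 CPM there, against 1.75 to 17.2 CPM in the other eWAT libraries, and Krt18 80.1 and 41.4 CPM, against 1.47 to 10.7 CPM. Both keratins were nonetheless higher in liver (Krt8 3.14 ± 0.89, Krt18 3.73 ± 0.80). They had 4.15 and 4.61 without eWAT library 4 and 5.64 and 6.21 without eWAT libraries 3, 4 and 5, but neither passed without liver libraries 1 to 4 (2.27 with an adjusted p of 0.173 and 2.85 with 0.068). The median of 7 shared cholangiocyte and epithelial genes, with 5 higher in eWAT, was -2.63 here and 1.75 without eWAT libraries 3, 4 and 5. In liver, library 5 had the most of 3 of the 9 mesothelial genes, chosen after their values were seen, Wt1 (4.31 CPM, against 0.281 to 1.13 CPM in the other liver libraries), Gpm6a (4.17 CPM, against 0.63 to 1.33 CPM) and Igfbp5 (52.6 CPM, against 4.94 to 8.15 CPM). Wt1 had -3.50 ± 0.57, Gpm6a -3.16 ± 0.45 and Igfbp5 -3.81 ± 0.59, and without that library they had -4.41, -3.77 and -4.96. Without liver libraries 1 to 4, which leaves library 5 with 1 other, they had -2.59, -2.41 and -2.70. The whole list did not follow that library: its summed level was 1510, 810, 572, 724, 540 and 396 CPM in liver libraries 1 to 6. The part of these cells in other results was not tested.

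**Figure D4:**
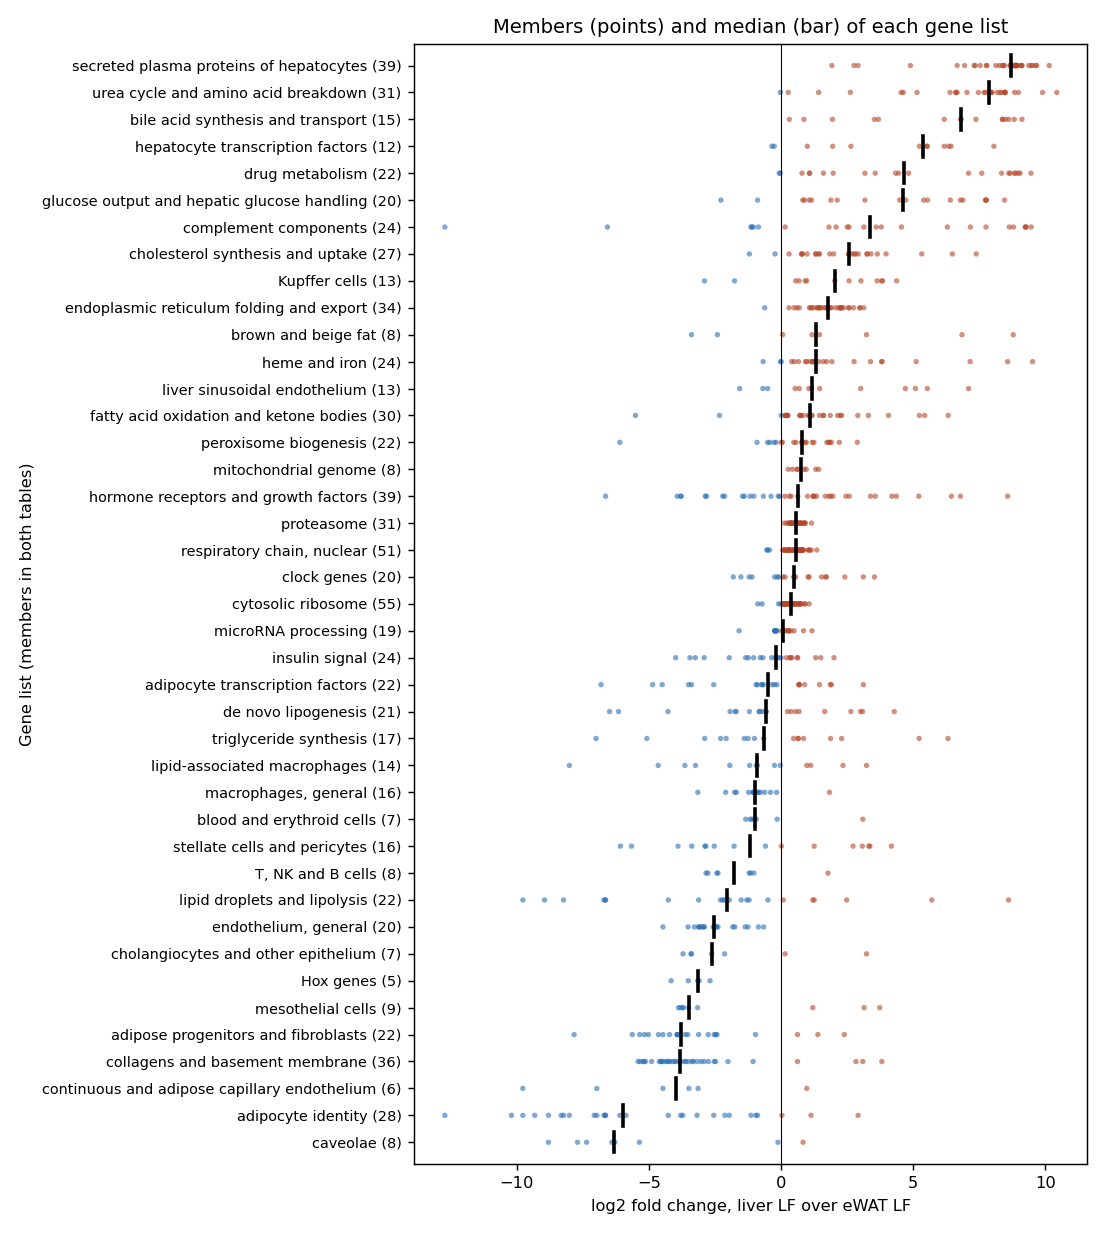
Log2 fold change, liver over eWAT, of each shared member of the gene lists (points) with the list median (bar), lists ordered by median. Plasma proteins (median 8.71) and urea cycle genes (7.86) lie at the liver end, adipocyte identity genes (-5.98) and caveola genes (-6.34) at the eWAT end.

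Hormone receptors and growth factors had 20 of 39 shared members higher in liver and 14 higher in eWAT, with a median of 0.63. With plain CPM 16 were higher in liver and 18 in eWAT (median -0.14). Those of the liver included Egfr, the epidermal growth factor receptor, at 1368 ± 346 CPM in liver and 66.5 ± 14.3 CPM in eWAT (4.36 ± 0.20), Igf1, insulin-like growth factor 1, at 575 ± 92.1 and 164 ± 26 CPM (1.81 ± 0.13), and Hamp, the iron hormone hepcidin, at 835 ± 320 and 2.2 ± 2.58 CPM (8.57 ± 0.77, or 9.45 without eWAT library 5, 11.65 without eWAT libraries 3, 4 and 5 and 7.88 without liver libraries 1 to 4). Fgf21, a fasting hormone of the liver, was low in both, at 4.42 ± 2.81 and 0.256 ± 0.123 CPM (4.19 ± 0.63). Of 24 insulin signal genes, 5 were higher in liver and 12 in eWAT (median -0.19), and with plain CPM 3 and 16. The insulin receptor, Insr, had 148 ± 14.8 CPM in liver and 95.4 ± 7.22 CPM in eWAT (0.63 ± 0.08, and -0.14 with plain CPM), whereas the steps of GLUT4 transport were on the eWAT side: Tbc1d4 (-3.99 ± 0.15) and Rhoq (-3.45 ± 0.15). The adaptor Irs3 was in the eWAT table only (43.7 ± 14.1 CPM). Heme and iron genes were higher in liver in 21 of 24 cases and in eWAT in 1 (median 1.31), and with plain CPM in 15 and 4, such as Cpox of heme synthesis (3.82 ± 0.15) and the metal importer Slc39a14 (5.11 ± 0.21).

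In 32 pairs of related genes, each with a liver-type and a fat-type member for 1 step, 23 pairs were divided as listed, with the liver-type member higher in liver or in its table only and the fat-type member the reverse. For glucose transport, Slc2a2 (GLUT2) had 340 ± 124 CPM in liver and 1.56 ± 1.47 CPM in eWAT (7.74 ± 0.47), and the insulin-responsive Slc2a4 (GLUT4) 1.5 ± 0.563 and 202 ± 42.2 CPM (-7.07 ± 0.23). The lipases of lipoproteins were divided as widely, Lipc of liver at 8.29 ± 0.48 and Lpl at -8.01 ± 0.32, as were the fatty acid carriers Fabp1 (7.72 ± 0.81) and Fabp4 (-9.77 ± 0.27). Without eWAT library 5, Slc2a2 had 8.46, Lipc 9.21 and Fabp1 8.57, and without eWAT libraries 3, 4 and 5 they had 8.94, 10.08 and 10.70. Lpl had -8.89 without liver libraries 1 to 4. The opposite sides were also taken by the glycogen synthases Gys2 (4.48 ± 0.34) and Gys1 (-5.17 ± 0.15), the thyroid hormone receptors Thrb (1.20 ± 0.14) and Thra (-2.14 ± 0.12), and the pyruvate kinases Pklr (5.54 ± 1.04, or 6.43 without eWAT library 4 and 10.91 without libraries 3, 4 and 5) and Pkm (-4.02 ± 0.16).

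The remaining 9 pairs were not divided in this way. Both members were higher in liver for 4 pairs, among them the carnitine palmitoyltransferases Cpt1a (2.90 ± 0.14) and Cpt1b (1.17 ± 0.31, or 0.68 and not passing without liver libraries 1 to 4), the glutathione transferases Gsta3 (3.17 ± 0.22) and Gstp1 (4.44 ± 0.18), and the apolipoproteins Apob and Apoe (2.82 ± 0.18). Both were higher in eWAT for 2, the acyltransferases Dgat2 (-1.39 ± 0.26) and Dgat1, and the malic enzymes Me1 (-0.83 ± 0.30, which did not pass without eWAT library 1, without eWAT library 6 or without liver libraries 1 to 4) and Me2 (-3.26 ± 0.13). In the last 3 at least 1 member did not pass: Pfkm (-0.15 ± 0.13, adjusted p = 0.319) beside Pfkl (-1.16 ± 0.10), Scd1 beside Scd2 (-6.49 ± 0.24), and Acacb (0.55 ± 0.24, adjusted p = 0.0567) beside Acaca.

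**Figure D5:**
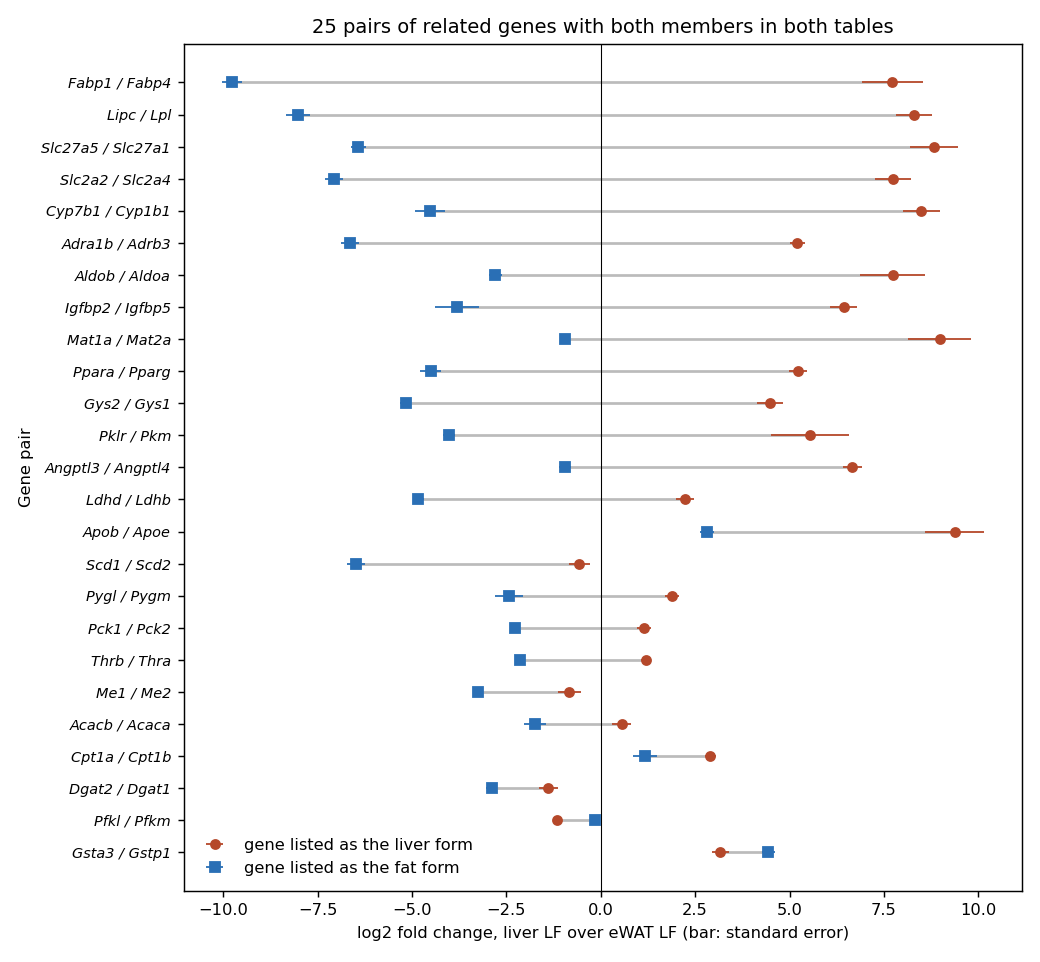
Log2 fold change, liver over eWAT, with its standard error, of the liver-type (circle) and the fat-type (square) member of 25 gene pairs with both members in both tables, joined by a line. In most the members lie on opposite sides of 0, such as Slc2a2 (7.74) and Slc2a4 (-7.07), and in others both lie on 1 side, such as Cpt1a (2.90) and Cpt1b (1.17).

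Genes that every cell uses differed by less, and their direction depends on the scaling. Ribosomal protein genes had a median of 0.36 with TMM factors (35 of 55 higher in liver, 2 in eWAT) and -0.42 with plain CPM (1 and 42). Nuclear respiratory chain genes had 0.55 (41 of 51 and 3) and -0.21 (4 and 24), and the proteasome 0.58 (30 of 31 and 0) and -0.18 (2 and 18). Endoplasmic reticulum folding and export genes, which serve secretion, stayed on the liver side under both, with 1.77 (32 of 34 higher in liver) and 0.99 (28 of 34), for example the chaperone Hspa5 (2.18 ± 0.15) and the disulfide isomerase P4hb (2.58 ± 0.11). Genes of microRNA processing had a median of 0.07 (7 of 19 higher in liver, 3 in eWAT), -0.11 with upper-quartile factors (3 and 7) and -0.70 with plain CPM (1 and 17). Dicer1, the nuclease that cuts microRNA precursors, had 41.1, 50.9, 48.7, 46, 43.5 and 51.7 CPM in liver libraries 1 to 6, against 31.8, 35.3, 35.1, 33.3, 30.5 and 34.5 CPM in eWAT libraries 1 to 6. The libraries did not overlap (0.49 ± 0.07, adjusted p = 3.48e-05, edgeR), but with plain CPM the value was -0.28. Drosha, the nuclear nuclease before it, was higher in eWAT (14.2 ± 1.69 CPM in liver and 42.7 ± 3.52 CPM in eWAT, -1.59 ± 0.09).

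Among genes whose mean log2 CPM reached 5, the 6 that passed with the largest p were Mark4 (-0.17 ± 0.07), Morc2a (-0.20 ± 0.09), Ext1 (-0.21 ± 0.09), Sf1 (0.21 ± 0.09), Dlat (-0.42 ± 0.18) and Dhdh (0.45 ± 0.19), with adjusted p from 0.0492 to 0.0499 (edgeR). Each lost its call without 1 or another single library. With plain CPM, Sf1 had -0.56 and Dhdh -0.30. Among clock genes, 7 of 20 were higher in liver, 4 in eWAT and 9 did not pass (median 0.48). With plain CPM 5 were higher in liver and 8 in eWAT (median -0.30). The hour of tissue collection is not in the labels used here.

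As a share of counts, liver RNA was concentrated in fewer genes. The 10 most abundant genes took 17.9% ± 0.894 of counts in liver and 12.9% ± 1.91 in eWAT, and the 100 most abundant 42.1% ± 1 and 29.3% ± 3.07 (SD, n = 6 each). Between 179 and 214 genes made up 50% of counts in liver libraries, against 540 to 981 in eWAT libraries. Plasma protein genes took 19.4% ± 1.13 in liver and 0.856% ± 0.154 in eWAT, and adipocyte identity genes 0.783% ± 0.186 in liver and 9.64% ± 1.49 in eWAT. In each of these 4 comparisons the groups did not overlap, with a two-sided exact permutation p of 0.00216, the smallest that 6 against 6 can give, and 0.0026 adjusted over 6 shares. Ribosomal protein genes took 0.743% ± 0.0707 in liver and 1.01% ± 0.0978 in eWAT, with the same p values. Shares are not scaled by TMM factors, and each sums the list members of the tissue's own table. The 13 adipocyte identity genes in the eWAT table only thus count in eWAT alone, and 1 plasma protein gene counts in liver alone. The 28 shared adipocyte identity genes had summed levels, scaled by TMM factors, of 7863 to 13102 CPM in liver and 45531 to 82126 CPM in eWAT. With those factors the ribosomal and mitochondrial genome lists had median log2 fold changes of 0.36 and 0.74, towards liver. The 8 mitochondrial genome genes in both tables, of 13 listed, took 3.23% ± 0.252 in liver and 3.15% ± 0.246 in eWAT, a difference within the spread (exact permutation p = 0.58). The other 5 were in neither table, so this is not the share of the whole mitochondrial genome.

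Per kilobase of exon, the most abundant liver genes were Alb (36251 CPM per kb), Apoe (14548), Apoa1 (11435), Apoa2 (10426) and mt-Co1 (9795 CPM per kb), a subunit of cytochrome oxidase. In eWAT they were Cfd (9446 CPM per kb), Car3, a carbonic anhydrase (5455), mt-Co1 (5351), Scd1 (4981) and mt-Cytb (4789 CPM per kb). Car3 and Scd1 were thus among the leading genes of eWAT without being restricted to it, since Car3 averaged 2663 ± 1588 CPM in liver and 15627 ± 3916 CPM in eWAT (-2.55 ± 0.38, or -1.78 without liver libraries 1 to 4).

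The tissue contrast was also fitted on the other diets, in 1 model of all 36 libraries, with 10300 genes (78.0%) passing on HF and 10132 (76.7%) on HFLF. Of the genes that passed on LF, 7911 (80.2%; 76.8% of those that passed on HF) passed in the same direction on HF and 398 in the opposite one. On HFLF, 8664 (87.9%; 85.5% of those that passed on HFLF) passed in the same direction and 33 in the opposite one. Of the 4124 genes that passed at more than 2-fold on LF, 3901 (94.6%) passed in the same direction on HF and 4038 (97.9%) on HFLF. The HF and HFLF contrasts use other libraries than the LF contrast, although the fitted spread is shared.

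The tissue difference changed for 6019 genes (45.6%) between HF and LF, and for 3492 of them the change ran against the sign of the LF difference. These include 475 genes that passed on LF and on HF with opposite signs in the fit of 36 libraries. Not all of the 3492 therefore need have a smaller difference on HF. Between HFLF and LF the tissue difference changed for 1130 genes (8.56%). Both tests use the LF libraries, and without liver LF libraries 1 to 4, 3025 and 1 genes passed. That fit kept only liver LF libraries 5 and 6, and fewer libraries can by themselves lower the number of calls. The change of Hnf4a with HF, for example, was 5.31 with all libraries and 5.34 without those, where it did not pass. Without eWAT libraries 3, 4 and 5 the counts were 5347 and 408. Leaving out liver library 2 alone gave 677 genes for HFLF and leaving out liver library 5 gave 1771.

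Of the genes whose mean log2 CPM reached 2, Cfd had the largest positive change. In liver it had a mean of 29.1 ± 37.4 CPM on HF and 1.32 ± 2.25 CPM on LF, and in eWAT 585 ± 423 CPM on HF and 8932 ± 3683 CPM on LF (SD, n = 6 each, scaled over 36 libraries). Its fold change between the tissues was -4.32 on HF and -12.72 on LF, a difference of 8.40 ± 1.10 (adjusted p = 4.24e-06, edgeR), or 10.06 without liver LF library 5 and 7.18 without liver LF libraries 1 to 4. Pparg changed the same way, by 2.04 ± 0.39, with 18.3 ± 9.59 CPM in liver and 102 ± 21.5 CPM in eWAT on HF, against 6.02 ± 2.25 and 137 ± 40 CPM on LF. Fabp4 changed by 1.23 ± 0.36. The largest changes towards eWAT in the same set were in Dhrs9, a short-chain dehydrogenase (-8.11 ± 0.92), the interleukin 1 antagonist Il1rn (-7.12 ± 0.87), the acute phase gene Saa3 (-6.97 ± 0.83, or -7.76 without eWAT LF library 1) and the stress factor Atf3 (-6.01 ± 0.94, or -5.01 without liver LF library 1). Without liver LF libraries 1 to 4 the changes were -6.53 for Dhrs9, -3.61 for Il1rn, -2.39 for Saa3 and -3.52 for Atf3, all still passing. The eWAT levels differed as well. Dhrs9 had 18 ± 16.4 CPM in eWAT on HF and 0.555 ± 0.375 CPM on LF, Il1rn 29.9 ± 27.5 and 0.932 ± 0.501 CPM, and Atf3 97.5 ± 82 and 6.89 ± 3.5 CPM. Saa3 had 6.5 ± 2.06 CPM in liver and 59.4 ± 20.8 CPM in eWAT on HF, against 72.6 ± 62.1 and 5.21 ± 5.36 CPM on LF. Its liver level on LF was 55.8, 103, 120 and 151 CPM in libraries 1 to 4 and 1.82 and 4.22 CPM in libraries 5 and 6.

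Hnf4a (5.31 ± 1.56), Alb (2.48 ± 1.00), Ppp1r1b (7.56 ± 1.78), Wnk2 (6.27 ± 1.37) and Myo15b (6.29 ± 1.85) also changed, and their eWAT LF levels are high in libraries that stood apart. Ppp1r1b had 120 and 44.7 CPM in eWAT LF libraries 4 and 5, against 0.218 to 2.68 CPM in the other eWAT LF libraries. Without eWAT LF library 4 the changes were 6.05 for Ppp1r1b, 5.22 for Wnk2, 4.75 for Myo15b and 4.25 for Hnf4a. Alb had 1.64 without eWAT LF library 5, where it did not pass (adjusted p = 0.17, edgeR), and leaving out any of 8 of the 12 LF libraries ended its call. Without liver LF libraries 1 to 4, Hnf4a (5.34), Alb (2.46) and Myo15b (5.68) did not pass, and without eWAT LF libraries 3, 4 and 5 none of the 5 genes passed, with values of 1.65 for Ppp1r1b, 1.86 for Wnk2, -1.02 for Myo15b, -0.86 for Hnf4a and 0.04 for Alb. By list, the median fold change of adipocyte identity genes was -4.31 on HF, -5.55 on HFLF and -5.98 on LF, that of lipogenesis genes 1.19, 0.30 and -0.57, and that of lipid-associated macrophage genes -5.22, -3.83 and -0.91, in the same order. For lipid-associated macrophage genes, 12 of 14 members changed towards eWAT between HF and LF, against 21.0% of all genes. Dicer1 did not pass for either change (0.06 ± 0.10 on HF and 0.18 ± 0.10 on HFLF, adjusted p of 0.659 and 0.251).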

How the data were processed

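Liver and eWAT RNA was sequenced on an Illumina NovaSeq, per the labels' protocols, and the submitters' processing notes name STAR and GRCm38.p6, while the sources used here do not give the counter, the annotation or the strand setting. The deposited gene counts, 1 table per tissue, were used as they are; all genes of a table exceeded 0.5 CPM in 6 or more of its 18 libraries. The deposited RPKM tables were not used.

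Counts of the 13206 shared genes were tested with edgeR 4.0.16 in R 4.3.3 (TMM factors, robust quasi-likelihood fit, a test against 2-fold, Benjamini-Hochberg over all genes). DESeq2 1.42.0 and limma voom 3.58.1 were alternatives. Changes with diet came from interaction terms in 1 fit of 36 libraries. Counts of 13206 genes were also simulated with equal levels in both tissues, except for 50 genes changed at each fold. There the LF comparison called 44% of genes changed 1.5-fold and 86% of those changed 2-fold, with 8 false calls. In the real data most genes differ and the scaling is unequal, so these rates do not give the error of the calls reported here.

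Genes were named by rule: the 10 most one-sided each way whose mean log2 CPM reached 5, the 10 most abundant of each table alone, up to 4 of smallest p per list, all pair genes, a fixed set, the 6 called genes of largest p whose mean log2 CPM reached 5, and the largest diet differences. Predicted, Mup and immune receptor genes were left out of the rule, and some genes it gave are not reported here. Other genes named were chosen after their values were seen. The members and gene lists were chosen with earlier results of these data known. Near-identical copies may share reads. Symbols, exon lengths and promoters came from RefSeq and the annotation of GRCm38, matched for 16992 of 17536 genes by full identifier and for 522 without the version.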

Additional observations from a re-analysis of the deposited data

Results flagged for a closer look

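Of 83 groups of 6 libraries tested for a single library far from the others, 5 held one, where chance gives about 5 percent. In liver, library 5 was high for Cfd (5.75 CPM) and Trarg1 (0.616 CPM), both genes of the eWAT side, and library 1 was high for Fabp4 (19.8 CPM). In eWAT, library 6 was high for Nnat (1358 CPM) and Trarg1 (525 CPM).

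The difference between liver and eWAT was itself different on HF and on LF, by edgeR's interaction test, for 13 of the genes followed across diets. It moved towards liver for Cfd (8.40), Ppp1r1b (7.56), Myo15b (6.29), Wnk2 (6.27), Hnf4a (5.31), Alb (2.48), Pparg (2.04), Fabp4 (1.23) and Ppargc1a (1.01), all as log2 values. Without eWAT LF libraries 3, 4 and 5 the differences of Ppp1r1b (1.65), Wnk2 (1.86), Myo15b (-1.02), Hnf4a (-0.86), Alb (0.04) and Ppargc1a (0.36) no longer passed. Ppargc1a also did not pass with TMM factors per tissue (0.97), without liver LF libraries 1 to 4 (0.80) and without 6 of the 12 LF libraries taken singly, with values of 0.64 to 1.14 over all 12. The tissue difference moved towards eWAT for Dhrs9 (-8.11), Il1rn (-7.12), Saa3 (-6.97) and Atf3 (-6.01), and without liver LF libraries 1 to 4 these were -6.53, -3.61, -2.39 and -3.52. Between HFLF and LF it also differed for Saa3 (-5.04), Atf3 (-4.54), Il1rn (-4.18) and Dhrs9 (-3.07). Without liver LF libraries 1 to 4, which leaves libraries 5 and 6, only 1 gene of all tested passed for HFLF. Saa3 in liver had 55.8, 103, 120 and 151 CPM in LF libraries 1 to 4 and 1.82 and 4.22 CPM in LF libraries 5 and 6, against 2.87 ± 1.49 CPM on HFLF. Both sets of tests use the same LF libraries.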

How the results depend on the processing

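The counts of genes that passed between liver LF and eWAT LF were 9567 to 9900 with 1 library left out, 10202 with DESeq2 and 10229 with limma voom, against 9862. Plain CPM gave 1899 higher in liver and 8947 higher in eWAT, and 929 and 4594 at more than 2-fold. Of the genes in 1 table only, 556 (liver) and 1440 (eWAT) were above 0.5 CPM in all 6 LF libraries, and 311 and 588 had a mean of at least 5 CPM. Changes of the tissue difference with HFLF ranged from 677 to 1771 genes with 1 library left out, and were 1 without liver LF libraries 1 to 4 and 408 without eWAT LF libraries 3, 4 and 5; with HF they were 3025 without liver LF libraries 1 to 4. Fits without those sets hold fewer libraries, which can itself lower the number of calls. The causes were not tested.

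Signs turned with plain CPM for Acacb (-0.22), Dhdh (-0.30), Dicer1 (-0.28), Sf1 (-0.56) and Insr (-0.14), and for the medians of hormone genes (-0.14), the respiratory chain (-0.21), the mitochondrial genome (-0.02), the ribosome (-0.42), the proteasome (-0.18), clock genes (-0.30) and microRNA processing (-0.70, and -0.11 with upper-quartile factors). Without liver LF libraries 1 to 4 they turned for Pfkm (0.05), Cebpa (0.20) and the median of adipocyte transcription factors (0.06). Without eWAT LF libraries 3, 4 and 5 they turned for the changes of Myo15b (-1.02) and Hnf4a (-0.86) with HF and for the median of epithelial genes (1.75, and 0.58 with limma voom quality weights).

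With the replicate number as a block 9732 genes passed, while Cyp2e1 (0.84), Ext1 (-0.21), Mark4 (-0.18), Sf1 (0.22) and the changes with HF of Hnf4a (2.94), Myo15b (3.40), Alb (2.73) and Ppargc1a (0.91) did not pass. The number pairs nothing by the labels: correlations of deviations between same-numbered liver and eWAT libraries were 0.0465 to 0.16, with 3 of 6 over 0.1, and 5 of 6 libraries matched their own number best, a hint from the data and not from the design. The depth of eWAT libraries ranged from 10676818 to 31186477 counts, which limits low genes in the shallower ones.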
